A study of Mus musculus with 10 samples.

Results

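Intergenic long noncoding RNA regions were followed through the probes that carry a genomic interval as their target name. These are the non-control probes whose name is a chromosome, a start and an end (mouse assembly mm9) with the letter F or R for the forward or reverse strand. There were 16181 such probes among the 55681 non-control probes of the array (29.1%), 8171 forward and 8010 reverse. They covered 4607 regions when each strand is counted, in 3540 intervals on 20 chromosomes, with a median of 3 probes per region and strand (range 1 to 10). The median interval was 7315 bp long, from 62 to 7128487 bp. Intervals that overlapped were joined into 2380 loci, leaving 135 intervals longer than 100000 bp apart.

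RNA levels were measured on 10 single-colour Agilent arrays, with 5 groups of 2 arrays, all of cells from mice with the Six2-GFP transgene (C57BL6J/ICR background). E11.5 progenitors were GFP-positive cells sorted at E11.5, in embryonic days, and P0 progenitors and P0 non-progenitors were the GFP-positive and GFP-negative cells sorted at birth, called P0 in the labels and E19.5 in the names of the deposited data. The 8-day culture and the 19-day culture were E11.5 GFP-positive cells grown in conditioned medium for 8 or 19 days. Every group carried the transgene, so no group shows cells without it, and the tissue is given only as embryo. A second sort of the cultured cells is not mentioned in the labels, and neither are separate litters or cultures for the arrays of a group, so p-values measure only the spread between these samples.

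Long intergenic noncoding RNAs are transcripts from the stretches between protein-coding genes. Many lie beside genes for transcription factors, some act on their neighbours and others, such as Malat1 and Neat1, work in the nucleus as abundant structural or regulatory RNAs, while for most no function is known. Nephron progenitors are the Six2-positive mesenchymal cells of the embryonic kidney that renew themselves and give rise to nephrons. The name "intergenic" fits most of the regions but not all by the array's own coordinates. A probe of a protein-coding gene lay inside 383 of the 4607 regions, and a probe of any named gene inside 862 (18.7%), in 554 on the same strand. Of those, 301 held a probe of a named noncoding RNA and 225 one of a coding gene. The nearest coding-gene probe was a median of 22459 bp away, and within 50 kb for 3118 regions (67.7%).

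The 5 probes printed first are described in the comparisons below. They are 60 bases long and are written 5′ to 3′ in lower case, as the deposited files give them.
A_30_P01029355: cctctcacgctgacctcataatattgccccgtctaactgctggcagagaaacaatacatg
A_30_P01021141: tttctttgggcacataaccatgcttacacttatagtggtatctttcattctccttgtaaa
A_30_P01029135: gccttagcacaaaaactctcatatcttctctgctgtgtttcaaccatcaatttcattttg
A_30_P01028224: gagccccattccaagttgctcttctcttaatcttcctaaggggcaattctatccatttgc
A_30_P01027543: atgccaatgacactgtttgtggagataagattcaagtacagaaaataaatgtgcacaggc
The first lies at chr17:86092349-86092408 (mm9, forward strand) in a region 8277 bp from the nearest Six2 probe. The second lies at chr1:141827358-141827417 (forward), in a region 106182 bp from the nearest Cfhr2 probe. The third belongs to chr1:42759171-42771337 on the reverse strand, beside Pou3f3, and the design gives no position of its own for it. The fourth lies at chr14:115441977-115442036 (reverse) in the interval that holds Mir17hg, and the fifth at chr1:175706588-175706647 (reverse), near Ifi204.

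Forward and reverse probes of an interval often read the same bases. The following pairs show this for regions beside Ccdc6 (chr10:69669025-69686275) and at Mir17hg (chr14:115423660-115463160), and capitals mark the bases of each probe that are the reverse complement of its partner.
A_30_P01031764: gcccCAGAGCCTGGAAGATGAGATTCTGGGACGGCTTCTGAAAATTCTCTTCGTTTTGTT
A_30_P01029185: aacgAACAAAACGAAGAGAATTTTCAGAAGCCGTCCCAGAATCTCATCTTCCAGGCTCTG
A_30_P01021324: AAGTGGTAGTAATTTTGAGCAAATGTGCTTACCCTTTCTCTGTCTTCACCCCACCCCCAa
A_30_P01019392: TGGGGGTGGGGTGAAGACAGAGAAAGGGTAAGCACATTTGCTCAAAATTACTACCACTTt
The first pair shares 56 of 60 bases and the second 59. Other interval probes share a stretch with a probe that carries another target name. For the pairs below, capitals mark such a stretch, 27 bases in reverse complement with a probe of the ribosomal protein gene Rps15a and 32 bases in the same orientation with a probe of the predicted gene LOC102634333.
A_30_P01025541: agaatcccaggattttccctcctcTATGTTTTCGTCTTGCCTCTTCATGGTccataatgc
A_55_P2109943: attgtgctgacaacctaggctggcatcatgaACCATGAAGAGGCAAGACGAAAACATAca
A_30_P01032042: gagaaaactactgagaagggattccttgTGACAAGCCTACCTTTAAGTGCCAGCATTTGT
A_55_P2414524: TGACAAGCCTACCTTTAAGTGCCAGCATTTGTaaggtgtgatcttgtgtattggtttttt
In all, 472 interval probes (2.92%) shared 20 or more bases with a probe of another target. Their values cannot be assigned to the interval alone. The pairs were chosen for display after their values were seen.

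Interval probes were well above background less often than the other probes on every array. The share ran from 54.97% in 8-day culture replicate 1 to 66.71% in 19-day culture replicate 2, against 62.22% to 71.17% for the other probes. On all 10 arrays 6650 interval probes (41.1%) were above background, compared with 51.1% of the other probes, and 2701 (16.7%) were above it on none. Some signal was seen for all but 196 of the 4607 regions. By group, the interval probes above background on both arrays were 50.1% in E11.5 progenitors, 51.4% in P0 progenitors, 53.0% in P0 non-progenitors, 51.5% in 8-day culture and 59.1% in 19-day culture. The other probes read 57.8%, 61.2%, 64.9%, 59.5% and 65.7% in the same order. In 19-day culture 115 interval probes were above background on both arrays and on no array of another group, while this count was 13 in E11.5 progenitors, 16 in P0 progenitors, 47 in P0 non-progenitors and 20 in 8-day culture. As shares these were 0.711%, 0.0803%, 0.0989%, 0.29% and 0.124% of the interval probes, where the other probes had 0.532%, 0.081%, 0.0962%, 0.8% and 0.0835%. Both 19-day arrays and 8-day culture replicate 2 lay on slide 2 and all others on slide 1, and the 3 arrays of slide 2 had the highest interval shares. The summed linear level of 8 nephron progenitor markers was 868.0 to 940.0 in both progenitor groups and 641.0 to 717.0 in P0 non-progenitors. It was 777.0 to 916.0 in 8-day culture and 648.0 to 706.0 in 19-day culture, where Meox1 was not above background. The Eya1 probe weighs most in these sums and read 9.24 to 9.74 on a log2 scale across all arrays. Its log2 change at birth was 0.13 ± 0.11 SE between progenitors and non-progenitors, so the sum is a weak check of the labels. Slide and culture time cannot be told apart in these shares, apart from the 8-day pair, whose slide 1 array read 54.97% and slide 2 array 64.34%.

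**Figure D1:**
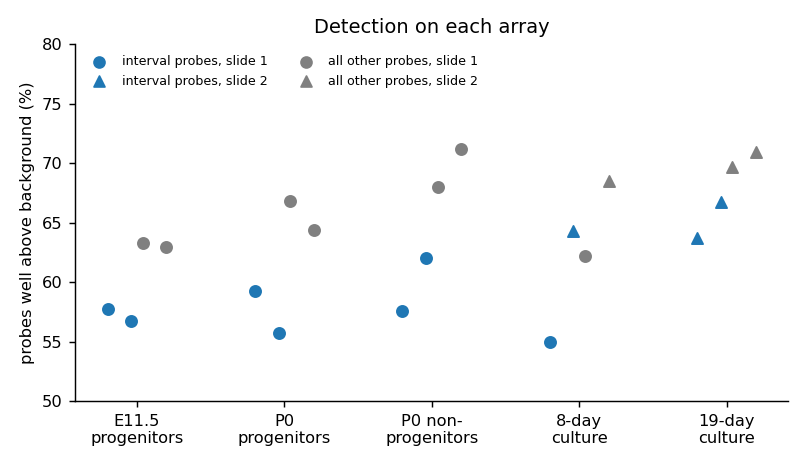
Percentage of probes well above background on each array, for interval probes (blue) and all other probes (grey), with circles for slide 1 and triangles for slide 2. Interval probes lie below the other probes on every array, and the slide 2 arrays read 63.69% to 66.71% for interval probes.

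Levels below are log2 intensities relative to each array's 75th percentile, so a level of 0 equals that percentile. The level of an interval probe moved with its base composition. Of the 2603 probes with at most 35% G and C, 22.6% were above background on all arrays, and of the 758 probes above 55%, 92.6% were. Over all 16181 interval probes, Pearson's r between GC percent and mean level was 0.34, a description over probes that share arrays. For this reason levels are compared between groups for 1 probe and never between probes. Replicates differed more at interval probes than elsewhere, with a root mean square difference of 1.148 log2 units between replicates and 1.449 between groups, against 1.058 and 1.588 for the other probes. Among interval probes the replicate difference was smallest in P0 progenitors (0.963) and largest in E11.5 progenitors (1.381). For the tests, 10828 interval probes (66.9%) qualified by being above background on both arrays in 1 group or more, in 4029 regions, compared with 73.4% of the other probes. Fewer cells of a type and less RNA per cell cannot be told apart in such bulk samples.

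Neighbouring probes were compared by their changes. Where a forward and a reverse probe overlapped by 20 or more bases, as in the pairs printed above, their changes had an r of 0.80 to 0.85 in the 5 comparisons (1258 pairs), close to the 0.84 to 0.93 of overlapping probes on the same strand (266 pairs). Probes of 1 region and strand that were merely first and second in it had an r of 0.50 to 0.56 (2763 pairs), and the forward and reverse means of an interval 0.49 to 0.62 (956 intervals). An interval probe within 500 bp of a named-gene probe had an r of 0.51 to 0.68 with it on the same strand (381 pairs) and of 0.47 to 0.72 on the opposite strand (315 pairs). These values are descriptions over pairs that share arrays, and overlapping pairs also share their sequence. Whether amplification and labelling kept the strand is not given in the sources used here, so F and R name the probe's strand and not the strand of the RNA.

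**Figure D2:**
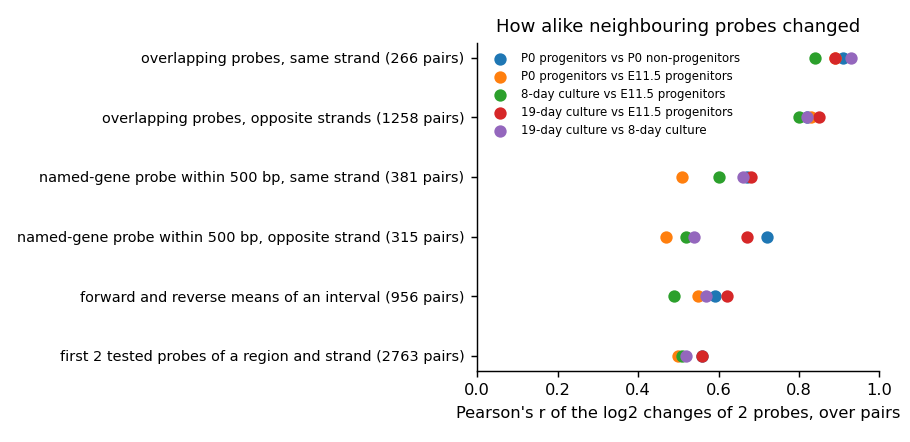
Pearson's r between the log2 changes of 2 probes, over the pairs of each kind, with 1 point for each of the 5 comparisons. Pairs that overlap lie between 0.80 and 0.93 on the same and on opposite strands, and the other kinds of pairs, which may include overlapping probes, lie between 0.47 and 0.72.

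Both strands were detected in most intervals that had probes on both. Of 1067 such intervals, 815 (E11.5 progenitors) to 908 (19-day culture) had a forward and a reverse probe above background on both arrays of the group. In 12 intervals a forward probe was detected in all groups and no reverse probe on any array, and in 8 the reverse. The change of the forward minus reverse difference was tested in 956 intervals. In P0 progenitors against P0 non-progenitors 3 intervals (0.314%) passed, and in each of the other 4 comparisons 0 passed at an adjusted limma p of 0.05, where 106, 119, 145 and 106 had an unadjusted p below 0.05. In chr17:88466300-88495175 the 1 forward probe tested read -4.95 and -4.85 in E11.5 progenitors, -2.95 and -2.76 in P0 progenitors, -6.52 and -6.34 in P0 non-progenitors, -5.36 and -5.60 in 8-day culture and -6.01 and -7.02 in 19-day culture. Both P0 progenitor arrays lay above all others, and the probe was well above background in no other group, so its change rests on readings below background on the other side and its size is not exact. The forward change at birth was 3.57 and the reverse change 0.23, a difference of 3.35 ± 0.32 SE (adjusted p = 0.0138). In chr19:57426515-57435165 the reverse change was -2.78 and the forward change -0.17 (adjusted p = 0.0409), and in chr6:108556270-108573161 they were -2.35 and -0.48 (adjusted p = 0.0409). Leaving out any 1 array of this comparison left 0 or 1 of the intervals called. For 19-day culture against E11.5 progenitors 42 intervals passed after normexp background correction and 21 with probes above background on all arrays, where 0 are given above.

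**Figure D3:**
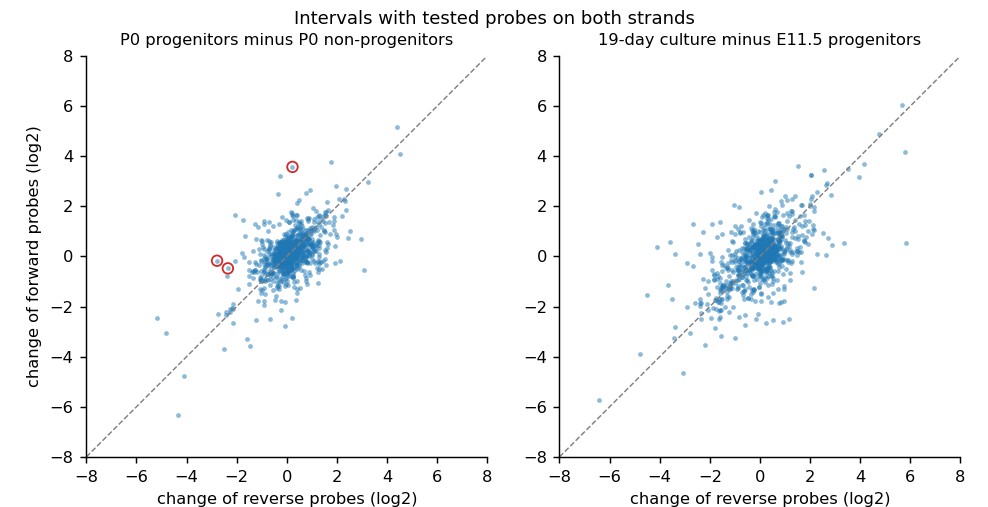
Change of the forward mean (vertical) against the change of the reverse mean (horizontal), in log2 units, for the 956 intervals with tested probes on both strands in 2 comparisons, with the line of equal change dashed. Red rings mark the 3 intervals whose strands changed unequally in P0 progenitors against P0 non-progenitors.

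Interval probes were called changed less often than other probes in every comparison. The called interval probes numbered 402 in P0 progenitors against P0 non-progenitors, 237 in P0 against E11.5 progenitors, 303 in 8-day culture and 1012 in 19-day culture against E11.5 progenitors, and 440 in 19-day against 8-day culture. In all, 1456 interval probes in 605 loci passed in at least 1 comparison. Of the interval probes 3.71%, 2.19%, 2.80%, 9.35% and 4.06% passed in that order, against 8.35%, 3.94%, 5.11%, 17.6% and 8.31% of the other probes tested. The other tested probes of a called region had the sign of its call in 84.7% to 89.2% of cases. Over all regions, called or not, the first 2 tested probes of a region and strand had the same sign in 62.7% to 67.8% of pairs. Probes of a region share arrays and may overlap, so these shares are descriptions. Positive changes below are toward the first group named, errors are standard errors from limma and p-values are adjusted over all 39831 probes.

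**Figure D4:**
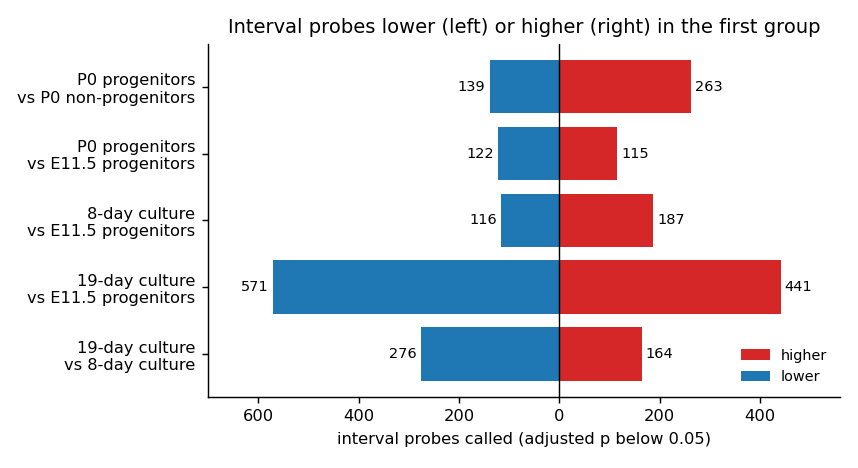
Number of interval probes called higher (right, red) or lower (left, blue) in the first group of each comparison, at an adjusted p below 0.05. The largest counts, 441 higher and 571 lower, are those of 19-day culture against E11.5 progenitors.

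The first comparison set progenitors against the other sorted cells at birth. Of the 10828 interval probes 263 were higher and 139 lower in P0 progenitors, in 200 loci, where 7.09% of all probes tested were called, 3.64% higher and 3.45% lower. The regions that stood highest in progenitors lay beside Ccdc6, a coiled-coil protein gene, and beside Six2, the transcription factor that keeps progenitors undifferentiated. Those that stood lowest lay near Cfhr2, a complement factor H-related gene, Pou3f3, a POU transcription factor of the developing distal nephron, Apela, which encodes a ligand of the apelin receptor, and Gm3776. Markers of other cell types were far higher in the non-progenitors. The summed level of 6 proximal tubule markers was 82.2 to 97.7 there and 3.03 to 3.76 in P0 progenitors, and that of 5 endothelial markers 31.1 to 34.2 and 4.60 to 5.27 (sums of linear levels, in units of the 75th percentile). For 4 erythroid markers the sums were 520.0 to 629.0 and 8.69 to 14.0, and among them Hba-a1 was lower in the progenitors (log2 change -5.73 ± 0.70 SE, adjusted p = 0.00462), while those that missed the threshold were Hba-x, with a log2 change of 0.27 ± 0.69 SE (adjusted p = 0.894), and Hbb-y, with a log2 change of 0.12 ± 0.80 SE (adjusted p = 0.963). Hba-x was not well above background on either side and Hbb-y was not in P0 progenitors. All 6 and all 5 of the first lists were above background in the non-progenitors, Hnf4a and Tie1 were not in P0 progenitors, and the part of these cells in the regions' changes was not tested.

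The locus beside Ccdc6 spans 3 intervals in chr10:69667411-69686275, and all 12 of its tested probes, 7 forward and 5 reverse, were higher in P0 progenitors, against P0 non-progenitors (median log2 change 4.77). The reverse probe A_30_P01029185 read -1.24 and -0.24 in E11.5 progenitors, 2.32 and 1.92 in P0 progenitors, -2.18 and -2.62 in P0 non-progenitors, -2.54 and -2.04 in 8-day culture and -3.60 and -2.38 in 19-day culture. Both P0 progenitor arrays were above every other array, and the E11.5 progenitors came next. Its change at birth was 22.9-fold (log2 change 4.51 ± 0.53 SE, adjusted p = 0.0039) and passed also without any 1 of the 4 arrays. Against E11.5 progenitors 4 of the 12 probes were called higher at birth and all 12 had that sign (median 2.79). In 19-day culture 4 were called lower than in E11.5 progenitors. The nearest Ccdc6 probe lay 13716 bp from the interval. The brightest Ccdc6 probe read 5.12 and 5.89 in E11.5 progenitors, 4.62 and 4.44 in P0 progenitors, 2.72 and 2.75 in P0 non-progenitors, 3.71 and 3.69 in 8-day culture and 4.34 and 3.86 in 19-day culture, and it was 3.47-fold higher in P0 progenitors (log2 change 1.80 ± 0.26 SE, adjusted p = 0.00883). Against E11.5 progenitors it had a log2 change of -0.97 ± 0.26 SE (adjusted p = 0.1), while the region's probes were positive. Several probes of this locus, A_30_P01029185 among them, share bases with a probe of the noncoding RNA 2310015B20Rik.

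The Six2 region chr17:86092322-86093123 has 3 forward probes, all tested and all higher in P0 progenitors, against P0 non-progenitors (median log2 change 5.65). A_30_P01029355 read 1.25 and 1.91 in E11.5 progenitors, 1.30 and 1.55 in P0 progenitors, -4.27 and -4.18 in P0 non-progenitors, 1.45 and 1.57 in 8-day culture and -3.26 and -3.23 in 19-day culture. E11.5 progenitors, P0 progenitors and 8-day culture lay within 1.25 to 1.91, while P0 non-progenitors and 19-day culture lay below -3.2, with no overlap. At birth the change was log2 change 5.65 ± 0.31 SE, adjusted p = 0.000785. The probe was well above background on only 1 P0 non-progenitor array, so the size of this change is not exact. The probe was 28.3-fold lower in 19-day culture than in E11.5 progenitors (log2 change -4.82 ± 0.31 SE, adjusted p = 0.000281) and 27.0-fold lower than in 8-day culture (log2 change -4.75 ± 0.31 SE, adjusted p = 0.00152). Another of the 3, A_30_P01025129, read 5.50 and 5.35 in E11.5 progenitors, 4.29 and 3.93 in P0 progenitors, 2.56 and 2.70 in P0 non-progenitors, 5.48 and 6.07 in 8-day culture and 3.26 and 3.51 in 19-day culture, and in P0 progenitors it was above P0 non-progenitors (log2 change 1.48 ± 0.22 SE, adjusted p = 0.00989) and below E11.5 progenitors (log2 change -1.31 ± 0.22 SE, adjusted p = 0.026). The Six2 probe itself read 4.70 and 4.82 in E11.5 progenitors, 4.27 and 4.11 in P0 progenitors, -2.26 and -4.55 in P0 non-progenitors, 5.21 and 4.61 in 8-day culture and 1.06 and 2.32 in 19-day culture. It too was lowest in P0 non-progenitors and next lowest in 19-day culture, with a log2 change of 7.59 ± 0.71 SE (adjusted p = 0.00198) at birth and a log2 change of -3.07 ± 0.71 SE (adjusted p = 0.0266) in 19-day culture. The groups at birth were sorted by Six2-GFP, so the Six2 difference between them follows from the sort and is a description. A second region 135462 bp from the nearest Six2 probe, chr17:86219507-86220112, had 1 of 2 forward probes called, A_30_P01027541, with a log2 change of 3.39 ± 0.72 SE (adjusted p = 0.0324). That call was lost without any 1 of the 4 arrays (adjusted p = 0.112 to 0.167).

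Near Cfhr2 the region chr1:141824450-141835125 had 5 tested forward probes, 4 of them lower in P0 progenitors. A_30_P01019546 read -2.55 and -4.26 in E11.5 progenitors, -2.57 and -3.43 in P0 progenitors, 4.59 and 3.99 in P0 non-progenitors, 0.24 and 0.69 in 8-day culture and 6.31 and 4.82 in 19-day culture. Both P0 non-progenitor arrays and both 19-day arrays lay above all others, the 8-day arrays came between, and both progenitor groups were lowest. The change at birth was 157-fold (log2 change -7.29 ± 0.68 SE, adjusted p = 0.002). A_30_P01021141 was not well above background on either P0 progenitor array, and its level was at least 367-fold lower there than in P0 non-progenitors (log2 change -8.72 ± 0.76 SE, adjusted p = 0.00164, measured means -5.77 and 2.94). The Cfhr2 probe read -0.38 and -0.79 in E11.5 progenitors, -0.91 and -0.72 in P0 progenitors, 4.18 and 3.59 in P0 non-progenitors, 1.01 and 0.71 in 8-day culture and 6.09 and 4.79 in 19-day culture and changed in the same direction (log2 change -4.70 ± 0.43 SE, adjusted p = 0.00178). For a probe not well above background in 1 group the bound sets the bright group's mean against a floor for each array of the other group, which is the dimmest signal there that was well above background, or the probe's own where that is higher. Where the probe's own signal set the floor on both arrays, the bound equals the measured change. Each bound belongs to the main processing with all arrays and is no minimum across settings. Normexp correction made all 80 changes named by rule smaller (for A_30_P01021141 here, a log2 change of -5.01), and some fits without 1 array also gave changes below the bound.

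Beside Pou3f3 the intervals in chr1:42758928-42771337 held 14 tested probes, and 13 of them, 7 forward and 6 reverse, were lower in P0 progenitors (median -4.76). A_30_P01029135 read -6.21 and -6.19 in E11.5 progenitors, -2.79 and -2.38 in P0 progenitors, 2.98 and 2.93 in P0 non-progenitors, -6.09 and -5.24 in 8-day culture and -4.71 and -4.98 in 19-day culture. Both P0 non-progenitor arrays were highest, both P0 progenitor arrays came next, and the remaining 6 arrays were lowest. The change was 46.3-fold (log2 change -5.53 ± 0.42 SE, adjusted p = 0.00128). Against E11.5 progenitors 5 of the 14 probes were higher at birth. The Pou3f3 probe, 2770 bp from the locus, did not pass (log2 change -2.70 ± 1.21 SE, adjusted p = 0.268), and the interval holds a probe of 2900092D14Rik, a noncoding RNA.

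At Gm3776 8 of 9 tested probes of the locus chr9:78104935-78118850 were lower in P0 progenitors. A_30_P01020518 read -2.88 and -3.28 in E11.5 progenitors, -2.03 and -2.56 in P0 progenitors, 2.20 and 2.31 in P0 non-progenitors, -3.64 and -3.46 in 8-day culture and -2.99 and -3.56 in 19-day culture. The 2 P0 non-progenitor arrays were the only ones above 0 (log2 change -4.55 ± 0.37 SE, adjusted p = 0.00141), and this probe shares bases with a further transcript's probe. The Gm3776 probe, inside the interval, moved alike (log2 change -5.43 ± 0.89 SE, adjusted p = 0.0135). At Apela 6 of 9 tested probes of chr8:67542714-67561694 were lower in P0 progenitors. A_30_P01030588 read -4.98 and -6.03 in E11.5 progenitors, -4.16 and -6.21 in P0 progenitors, 0.94 and 1.12 in P0 non-progenitors, -4.83 and -4.65 in 8-day culture and -4.92 and -5.36 in 19-day culture, high on the P0 non-progenitor arrays alone. It was not well above background on either P0 progenitor array and at least 67.5-fold lower there (log2 change -6.22 ± 0.70 SE, adjusted p = 0.0036), with changes of -7.25 to -5.19 when 1 array was left out. The Apela probe changed with them (log2 change -5.89 ± 1.37 SE, adjusted p = 0.0455).

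Calls at birth depended on each array. Without P0 progenitors replicate 1 or 2 the count fell from 402 to 90 or 99, and without P0 non-progenitors replicate 1 or 2 to 134 or 139. Such fits leave 1 array in a group and assume that it varies like the others. Of the called interval probes 65.4% were higher in P0 progenitors, a share that was 53.2% after quantile normalization, 76.6% among probes above background on all arrays and 48.4% without the intensity trend. The median change of all probes was 0.12 log2 units in this comparison and -0.11 in P0 against E11.5 progenitors.

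**Figure D5:**
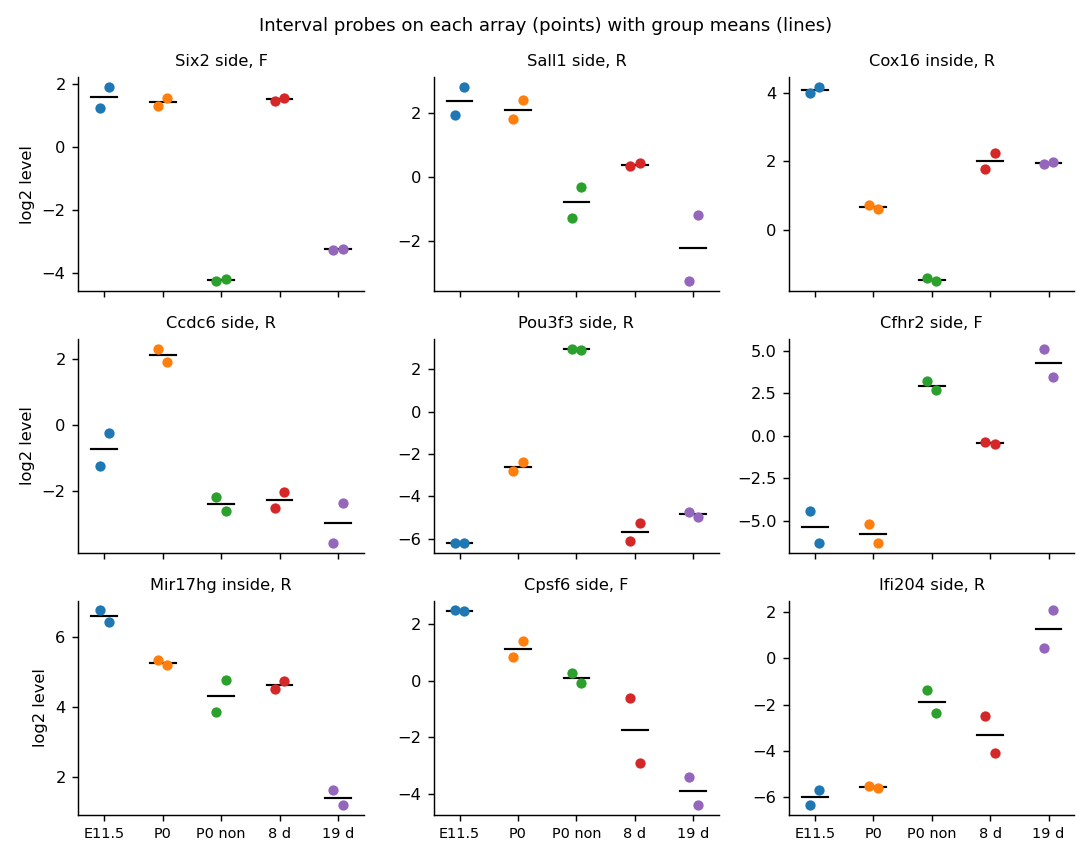
Log2 level (relative to the 75th percentile of the array) of 9 interval probes on each array, with 2 points for each group and a line at their mean, from E11.5 progenitors (left) to 19-day culture (right). The Six2 side probe is low only in P0 non-progenitors and 19-day culture, while the Cox16 probe is highest in E11.5 progenitors and lowest in P0 non-progenitors.

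The second comparison set progenitors at birth against those at E11.5. Of the interval probes 115 were higher and 122 lower in P0 progenitors, in 134 loci, where 3.46% of all probes tested were called, 1.85% higher and 1.61% lower. A change that stood without any 1 of the 4 arrays was at Cox16, an assembly factor of cytochrome c oxidase, whose interval chr12:82457625-82476325 had 3 reverse probes that all fell. Regions beside Trim71, an RNA-binding protein gene and let-7 target, and in the imprinted Dlk1 to Dio3 domain were lower at birth too. For the latter, Rtl1 was the coding gene with the nearest probe. Regions beside Isg15, an interferon-induced ubiquitin-like protein gene, and Mttp, the microsomal triglyceride transfer protein gene, were higher. Markers of other cells differed between the ages too. Summed loop and distal tubule markers were 0.0771 to 0.104 in E11.5 progenitors, where Umod, Slc12a1 and Tfap2b of the 4 were not well above background, and 1.76 to 2.73 in P0 progenitors, where all 4 were. The 4 erythroid markers summed to 21.3 to 62.9 at E11.5, all above background, and to 8.69 to 14.0 at birth, where Hbb-y and Hba-x were not. Of the 4, Hbb-y (log2 change -8.94 ± 0.80 SE, adjusted p = 0.00373) and Hba-x (log2 change -7.35 ± 0.69 SE, adjusted p = 0.00432) were lower at birth. Hba-a1 (log2 change 0.31 ± 0.70 SE, adjusted p = 0.864) and Alas2 (log2 change 2.08 ± 0.87 SE, adjusted p = 0.266) had the opposite sign and did not pass. The part of these markers' cells in the regions' changes was not tested.

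At Cox16 A_30_P01022763 read 3.99 and 4.18 in E11.5 progenitors, 0.73 and 0.60 in P0 progenitors, -1.43 and -1.52 in P0 non-progenitors, 1.77 and 2.25 in 8-day culture and 1.91 and 1.97 in 19-day culture. Both E11.5 arrays were above all others, both P0 non-progenitor arrays below all others, and the rest lay between. The fall from E11.5 to P0 progenitors was 10.6-fold (log2 change -3.41 ± 0.23 SE, adjusted p = 0.00125). All 3 probes were lower than in E11.5 progenitors in 8-day and in 19-day culture as well, with a median change of -2.39 and -2.13, and in P0 progenitors all 3 were above P0 non-progenitors (median 2.58). The Cox16 probe inside the interval had the same sign but missed the threshold (log2 change -1.92 ± 0.41 SE, adjusted p = 0.0509).

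Beside Trim71, 5 of 9 tested probes of chr9:114412295-114418384 were lower at birth and all 9 had that sign. The forward probe A_30_P01024520 read 2.49 and 0.86 in E11.5 progenitors, -2.16 and -2.20 in P0 progenitors, -1.71 and -2.34 in P0 non-progenitors, 0.17 and -0.35 in 8-day culture and 0.09 and 0.50 in 19-day culture. The E11.5 arrays were highest, at 2.49 and 0.86, and the 4 arrays of cells at birth were lowest. The change was 14.5-fold (log2 change -3.85 ± 0.54 SE, adjusted p = 0.0139; -4.67 to -3.04 with 1 array left out), and the call was lost without P0 progenitors replicate 1 (adjusted p = 0.0966) or 2 (adjusted p = 0.102). The nearest Trim71 probe lay 2031 bp from the interval, and the brightest one had a smaller difference that did not pass (log2 change -0.93 ± 0.26 SE, adjusted p = 0.109). In the Rtl1 stretch A_30_P01030446 of chr12:110909258-110913909 read 0.90 and 0.15 in E11.5 progenitors, -4.95 and -4.23 in P0 progenitors, -4.68 and -4.55 in P0 non-progenitors, -3.90 and -2.14 in 8-day culture and -1.46 and -2.50 in 19-day culture. The 2 E11.5 arrays were highest and the 4 arrays at birth lowest. It was not well above background in P0 progenitors, at least 34.7-fold lower than at E11.5 (log2 change -5.12 ± 0.67 SE, adjusted p = 0.0122), and the call was lost without P0 progenitors replicate 1 (adjusted p = 0.0925) or 2 (adjusted p = 0.0761). A_30_P01032789 of chr12:110894095-110899517 was at least 51.3-fold lower (log2 change -5.68 ± 0.90 SE, adjusted p = 0.0211). It was no longer called without any 1 of the 4 arrays (log2 change -6.29 to -5.07, adjusted p = 0.0522 to 0.145). The nearest Rtl1 probe lay 80820 bp from chr12:110909258-110913909 and 65657 bp from chr12:110894095-110899517. In the locus chr12:110894095-110940553, which holds both, 2 of 8 tested probes were lower at birth. In the locus chr12:110842149-110891628, nearer to Rtl1, 1 of 17 was. The Rtl1 probe did not pass (log2 change -0.92 ± 0.50 SE, adjusted p = 0.397).

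Beside Isg15 6 of 14 tested probes of the locus chr4:155560050-155571580 were higher at birth, 2 forward and 4 reverse. A_30_P01033628 read -5.19 and -5.23 in E11.5 progenitors, -0.17 and 0.40 in P0 progenitors, 2.13 and 1.58 in P0 non-progenitors, 0.07 and 0.87 in 8-day culture and -1.48 and 0.51 in 19-day culture. Both E11.5 arrays lay below all others, and both P0 non-progenitor arrays were highest. It was not well above background at E11.5, and its level was at least 39.9-fold higher in P0 progenitors (log2 change 5.32 ± 0.64 SE, adjusted p = 0.00966), and the call was lost without P0 progenitors replicate 1 (adjusted p = 0.0656) or 2 (adjusted p = 0.0825) and after normexp background correction (adjusted p = 0.0667). The Isg15 probe did not pass in this comparison (log2 change 0.48 ± 0.98 SE, adjusted p = 0.844) but rose in 19-day culture (log2 change 5.87 ± 0.98 SE, adjusted p = 0.0079). Beside Mttp A_30_P01032042 of chr3:137736327-137752677, which shares bases with the LOC102634333 probe as printed above, read -6.26 and -5.65 in E11.5 progenitors, -0.38 and 0.22 in P0 progenitors, -2.36 and 1.23 in P0 non-progenitors, 1.59 and 0.32 in 8-day culture and -6.70 and -6.77 in 19-day culture. P0 progenitors and 8-day culture were near or above 0, while E11.5 progenitors and 19-day culture lay below -5.6. It was at least 41.2-fold higher in P0 than in E11.5 progenitors (log2 change 5.88 ± 1.05 SE, adjusted p = 0.031), and this call was lost without any 1 of the 4 arrays (adjusted p = 0.0682 to 0.178) and after normexp correction (adjusted p = 0.224).

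This comparison rested on the P0 progenitor arrays. Without replicate 1 or 2 of them, 10 or 15 interval probes were called in place of 237, and without E11.5 progenitors replicate 1 there were 134. Of the called interval probes 48.5% were higher at birth. The share was 63.7% after quantile normalization, 37.6% with normexp correction, 37.6% among probes above background on all arrays and 62.1% without the intensity trend, so which direction holds more calls depends on these choices.

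The third comparison addressed 8 days of culture. Against E11.5 progenitors 187 interval probes were higher and 116 lower, in 188 loci, where 4.48% of all probes tested were called, 2.65% higher and 1.83% lower. The rises included regions at Neat1, at Rnf150, a RING finger protein gene, and beside Mttp. The falls included regions beside Cpsf6, a subunit of the pre-mRNA cleavage machinery, at Mir17hg, the host transcript of an oncogenic microRNA cluster, and on the Tbl1xr1 side of chromosome 3. With slide as a block the count was 138, and among slide 1 arrays, where 8-day culture has replicate 1 alone, it was 101. The 4 erythroid markers summed to 21.3 to 62.9 in E11.5 progenitors and to 1.03 to 1.14 in 8-day culture, where Hba-x was not well above background. Hbb-y (log2 change -7.80 ± 0.80 SE, adjusted p = 0.00566), Hba-x (log2 change -6.75 ± 0.69 SE, adjusted p = 0.00562) and Hba-a1 (log2 change -4.28 ± 0.70 SE, adjusted p = 0.0233) were lower at 8 days. Alas2 had the opposite sign and did not pass (log2 change 1.81 ± 0.87 SE, adjusted p = 0.312). The 5 leukocyte markers summed to 1.98 to 2.21 and 0.758 to 0.919, with S100a9 not above background in either group. Of the 5, only Tyrobp was called lower at 8 days (log2 change -4.66 ± 0.70 SE, adjusted p = 0.0185), when it was not above background. Fcer1g (-0.64 ± 0.58 SE), Cd68 (-0.53 ± 0.91 SE) and Ptprc (0.16 ± 0.29 SE) had smaller log2 changes that were not called, and Ptprc had the opposite sign. The part of these cells in the regions' changes was not tested.

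The Malat1 and Neat1 locus, chr19:5771425-5848475, had 26 tested probes in 6 intervals. Of these, 6 were higher in 8-day culture and 11 in 19-day culture than in E11.5 progenitors, and 11 were lower in P0 progenitors, against P0 non-progenitors. At 8 days 1 of 15 tested probes was higher where the interval holds a Malat1 probe, and 2 of 2 where it holds a Neat1 probe. A_30_P01029504, in the interval that holds Neat1, read -0.99 and -2.78 in E11.5 progenitors, -1.86 and -1.30 in P0 progenitors, 1.45 and 1.98 in P0 non-progenitors, 2.27 and 2.24 in 8-day culture and 0.56 and 1.09 in 19-day culture. Both P0 non-progenitor arrays and all culture arrays were above 0, and all progenitor arrays were below it. The rise at 8 days was 17.6-fold (log2 change 4.14 ± 0.56 SE, adjusted p = 0.0136; 3.25 to 5.03 with 1 array left out). The call was lost without 8-day culture replicate 1 or 2. With the slide block the change kept its size but missed the threshold (log2 change 4.15, adjusted p = 0.0508). The Neat1 probe rose as well (log2 change 2.85 ± 0.48 SE, adjusted p = 0.0243). At Rnf150 5 of 8 tested probes of chr8:85609155-85615170 rose at 8 days and 6 at 19 days, with a median change of 2.67 and 3.01. A_30_P01023140 read -1.15 and -0.52 in E11.5 progenitors, 1.27 and 1.73 in P0 progenitors, 2.57 and 0.60 in P0 non-progenitors, 2.87 and 3.72 in 8-day culture and 2.34 and 3.26 in 19-day culture, with the 2 E11.5 arrays lowest. Its rise at 8 days (log2 change 4.13 ± 0.66 SE, adjusted p = 0.0214) was lost without E11.5 progenitors replicate 1 (adjusted p = 0.0693), without either 8-day array (adjusted p = 0.0623 and 0.0797) and with the slide block (adjusted p = 0.079). The Rnf150 probe inside the interval rose too (log2 change 3.45 ± 0.46 SE, adjusted p = 0.0127).

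Beside Cpsf6 3 of 8 tested probes of chr10:116814196-116920696 fell at 8 days and 6 at 19 days. A_30_P01026713 read 1.66 and 1.41 in E11.5 progenitors, -0.09 and 0.43 in P0 progenitors, -0.84 and -0.94 in P0 non-progenitors, -2.14 and -4.06 in 8-day culture and -4.61 and -5.20 in 19-day culture. Its level was highest in E11.5 progenitors, lower in both groups at birth, lower again in 8-day culture and lowest in 19-day culture, with no overlap between these 4 steps. The fall at 8 days was 24.8-fold (log2 change -4.63 ± 0.60 SE, adjusted p = 0.0119) and was called also without any 1 of the 4 arrays (log2 change -5.59 to -3.68) and with the slide block (log2 change -3.68, adjusted p = 0.0226). In 19-day culture it was not well above background and at least 86.7-fold lower (log2 change -6.44 ± 0.60 SE, adjusted p = 0.000914), a bound that the smaller change with the slide block did not reach (log2 change -4.52, adjusted p = 0.0203). The Cpsf6 probe, 18038 bp away, did not pass, with a log2 change of -0.34 ± 0.53 SE (adjusted p = 0.808) at 8 days and a log2 change of -1.63 ± 0.53 SE (adjusted p = 0.0832) at 19 days. On the Tbl1xr1 side chr3:21964899-21974885 had 4 of 14 tested probes lower at 8 days and 5 at 19 days, and all 14 had a negative change at both. A_30_P01030305 read 1.21 and -0.32 in E11.5 progenitors, 0.78 and 0.14 in P0 progenitors, 0.22 and -1.65 in P0 non-progenitors, -2.82 and -3.30 in 8-day culture and -3.93 and -3.94 in 19-day culture, with all 4 culture arrays below all others. Its fall at 8 days (log2 change -3.51 ± 0.71 SE, adjusted p = 0.04; -4.27 to -2.74 with 1 array left out) was lost without E11.5 progenitors replicate 1 (adjusted p = 0.123), without either 8-day array (adjusted p = 0.106 and 0.131), with the slide block (adjusted p = 0.132) and after normexp correction (adjusted p = 0.0718).

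The largest bound at 8 days belonged to the single tested forward probe of chr15:12122307-12122758, A_30_P01027494, 8219 bp from the nearest Zfr probe. It read -6.17 and -6.01 in E11.5 progenitors, -4.74 and -4.77 in P0 progenitors, -2.74 and -6.62 in P0 non-progenitors, 1.64 and 1.34 in 8-day culture and -5.39 and -3.0 in 19-day culture, so that only the 8-day arrays were above 0. It was at least 124-fold higher than in E11.5 progenitors (log2 change 7.58 ± 1.23 SE, adjusted p = 0.0228; 7.43 to 7.73 with 1 array left out). The call was lost without any 1 of the 4 arrays and with the slide block (log2 change 7.73, adjusted p = 0.0706). Over all interval probes, the count of 303 fell to 86 without 8-day culture replicate 1, to 140 without replicate 2 and to 166 without E11.5 progenitors replicate 1. The share higher, 61.7%, was 71.6% without the intensity trend.

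The fourth comparison addressed 19 days of culture. Against E11.5 progenitors 441 interval probes were higher and 571 lower, in 432 loci, where 15.3% of all probes tested were called, 6.77% higher and 8.58% lower. The falls included regions at Mir17hg, beside Cpsf6, Six2 and Sall1, a zinc-finger factor needed for kidney formation, and near Hoxb9. The rises included regions near Cfhr2 and beside Ifi204 and Ifi207, interferon-inducible genes. All 19-day arrays lay on slide 2, and with slide as a block, where the 8-day pair alone links the slides, 275 interval probes were called. Summed stromal markers were 94.3 to 103.0 in 19-day culture and 12.4 to 16.2 in E11.5 progenitors (all 4 above background in both). Of the 4, Col3a1 (log2 change 7.21 ± 0.33 SE, adjusted p = 8.25e-05) and Pdgfrb (log2 change 3.29 ± 0.85 SE, adjusted p = 0.0389) rose, Foxd1 fell (log2 change -6.95 ± 1.25 SE, adjusted p = 0.0104) and Ren1 did not pass (log2 change 0.73 ± 0.58 SE, adjusted p = 0.462). Their part in the regions' changes was not tested.

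At Mir17hg 10 of 23 tested probes of the locus fell, 5 forward and 5 reverse. A_30_P01028224 read 6.75 and 6.42 in E11.5 progenitors, 5.33 and 5.19 in P0 progenitors, 3.86 and 4.77 in P0 non-progenitors, 4.50 and 4.75 in 8-day culture and 1.63 and 1.2 in 19-day culture. The groups did not overlap between E11.5 progenitors, the highest, P0 progenitors next and 19-day culture, the lowest, while P0 non-progenitors and 8-day culture overlapped each other. The fall was 36.0-fold (log2 change -5.17 ± 0.30 SE, adjusted p = 0.000221), and it stood without any 1 array and with the slide block (adjusted p = 0.0111). The pair printed above fell together. A_30_P01021324 read 6.22 and 5.83 in E11.5 progenitors, 4.68 and 4.63 in P0 progenitors, 3.26 and 4.14 in P0 non-progenitors, 3.92 and 4.24 in 8-day culture and 1.64 and 1.06 in 19-day culture and A_30_P01019392 read 4.03 and 3.68 in E11.5 progenitors, 2.59 and 2.56 in P0 progenitors, 1.49 and 2.23 in P0 non-progenitors, 2.00 and 2.32 in 8-day culture and -0.50 and -0.95 in 19-day culture. The forward probe fell by 4.68 and the reverse probe by 4.58 on the log2 scale. The probe that carries the name Mir17hg, which lies elsewhere in the interval, did not pass (log2 change -2.86 ± 1.26 SE, adjusted p = 0.185).

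Beside Sall1 6 of 22 tested probes of chr8:91569369-91594119 fell and 21 had a negative change (median -2.76). The reverse probe A_30_P01020870 read 1.92 and 2.81 in E11.5 progenitors, 1.81 and 2.40 in P0 progenitors, -1.26 and -0.32 in P0 non-progenitors, 0.34 and 0.44 in 8-day culture and -3.25 and -1.18 in 19-day culture. E11.5 and P0 progenitors were highest, the 8-day arrays were lower, and both 19-day arrays lay below the 8-day arrays. The fall was 24.0-fold (log2 change -4.58 ± 0.68 SE, adjusted p = 0.00519; -5.61 to -3.55 with 1 array left out) and did not pass with the slide block (adjusted p = 0.0966). The Sall1 probe, 18032 bp away, read 3.85 and 4.36 in E11.5 progenitors, 4.12 and 4.26 in P0 progenitors, 1.58 and 1.91 in P0 non-progenitors, 1.71 and 2.09 in 8-day culture and -2.90 and -0.27 in 19-day culture and fell too (log2 change -5.69 ± 0.72 SE, adjusted p = 0.00283). Beside Cpsf6 the forward probe A_30_P01023217 read 2.49 and 2.46 in E11.5 progenitors, 0.84 and 1.41 in P0 progenitors, 0.29 and -0.08 in P0 non-progenitors, -0.60 and -2.92 in 8-day culture and -3.40 and -4.41 in 19-day culture, and its fall was 83.2-fold (log2 change -6.38 ± 0.72 SE, adjusted p = 0.00178), and the smaller change under the slide block still passed (log2 change -4.05, adjusted p = 0.0355). On the same strand A_30_P01022609 read 2.38 and 2.02 in E11.5 progenitors, 0.36 and 0.96 in P0 progenitors, -0.31 and -0.10 in P0 non-progenitors, -1.17 and -5.94 in 8-day culture and -5.56 and -6.67 in 19-day culture. In 19-day culture it was not well above background and at least 256-fold lower (log2 change -8.32 ± 1.30 SE, adjusted p = 0.00631). With the slide block the call was lost and the change did not reach that bound (log2 change -3.55, adjusted p = 0.0625).

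In the region beside Hoxb9, a homeobox gene of the trunk, probes moved in opposite directions. A_30_P01022605 of chr11:96112907-96125798 read 1.53 and 0.33 in E11.5 progenitors, -0.61 and 0.99 in P0 progenitors, -1.46 and -0.53 in P0 non-progenitors, -6.25 and -2.52 in 8-day culture and -5.82 and -6.06 in 19-day culture. In 19-day culture it was not well above background and at least 116-fold lower than in E11.5 progenitors (log2 change -6.87 ± 1.16 SE, adjusted p = 0.0082; -7.47 to -6.27 with 1 array left out), and the change was larger with the slide block (log2 change -10.60, adjusted p = 0.0133). A_30_P01021551 of chr11:96111499-96126224, on the same strand, read -0.14 and -0.65 in E11.5 progenitors, 0.30 and 0.33 in P0 progenitors, 1.70 and 1.93 in P0 non-progenitors, 1.06 and 0.74 in 8-day culture and 2.53 and 2.51 in 19-day culture and rose (log2 change 2.92 ± 0.25 SE, adjusted p = 0.00071). The first of these shares bases with a probe of Gm53, which lies in the interval. The Hoxb9 probe fell (log2 change -3.86 ± 0.62 SE, adjusted p = 0.0068).

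Among the rises, A_30_P01021141 near Cfhr2 read -4.44 and -6.33 in E11.5 progenitors, -5.22 and -6.32 in P0 progenitors, 3.23 and 2.66 in P0 non-progenitors, -0.37 and -0.46 in 8-day culture and 5.12 and 3.48 in 19-day culture. The 19-day arrays were highest, the P0 non-progenitor arrays next, the 8-day arrays after them and the progenitor arrays lowest. Not well above background at E11.5, it was at least 661-fold higher at 19 days (log2 change 9.68 ± 0.76 SE, adjusted p = 0.000523; 8.74 to 10.63 with 1 array left out), with an adjusted p = 0.0226 under the slide block. The Cfhr2 probe rose too (log2 change 6.03 ± 0.43 SE, adjusted p = 0.000409). Beside Ifi204 all 10 tested probes of chr1:175705225-175717250 rose, 5 on each strand (median 4.87), and at Ifi207 12 of 16 tested probes of chr1:175653557-175672031 did (median 4.81). A_30_P01027543 read -6.33 and -5.66 in E11.5 progenitors, -5.50 and -5.60 in P0 progenitors, -1.38 and -2.35 in P0 non-progenitors, -2.51 and -4.10 in 8-day culture and 0.42 and 2.06 in 19-day culture. Both 19-day arrays were highest and the progenitor arrays were lowest. With both E11.5 arrays not well above background, it was at least 103-fold higher at 19 days (log2 change 7.24 ± 0.74 SE, adjusted p = 0.0013; 6.42 to 8.06 with 1 array left out), and the slide block gave a larger change (log2 change 8.84, adjusted p = 0.0175). Under that block A_30_P01024163 of the same region (adjusted p = 0.0572) and A_30_P01027265 at Ifi207 (adjusted p = 0.241) did not pass. At Ifi207 A_30_P01030969 (adjusted p = 0.0327) and A_30_P01031526 (adjusted p = 0.0361) did. The Ifi204 probe read -3.04 and -2.02 in E11.5 progenitors, -1.25 and -6.40 in P0 progenitors, -1.36 and -0.79 in P0 non-progenitors, 1.05 and -0.76 in 8-day culture and 2.93 and 4.66 in 19-day culture and rose (log2 change 6.32 ± 1.53 SE, adjusted p = 0.0311), while the Ifi207 probe did not pass (log2 change 2.37 ± 1.19 SE, adjusted p = 0.239).

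Leaving out 19-day culture replicate 1 lowered the count of 1012 to 504. The share of calls that were higher, 43.6%, was 29.7% after normexp correction, where the median change of all probes was -0.18.

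The last comparison set 19-day against 8-day culture. Of the interval probes 164 were higher and 276 lower at 19 days, in 227 loci, where 7.15% of all probes tested were called, 2.47% higher and 4.68% lower. The falls included the Six2 region described above and regions beside Mttp and on the Bhlha9 side of chromosome 11, and the rises included regions near Cfhr2, Ifi204 and Ifi207 and on chromosome 4. With slide as a block 261 were called. Within slide 2, where 8-day culture has replicate 2 alone, limma called 0, with 1468 at an unadjusted p below 0.05.

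On the Bhlha9 side the forward probe A_30_P01028149 of chr11:76400207-76434732, 52387 bp from the Bhlha9 probe, read 0.84 and 1.40 in E11.5 progenitors, 0.74 and 0.76 in P0 progenitors, -0.71 and -0.52 in P0 non-progenitors, 2.28 and 1.51 in 8-day culture and -2.83 and -3.10 in 19-day culture. Only the 19-day arrays lay below -2. Its fall was 29.1-fold (log2 change -4.86 ± 0.34 SE, adjusted p = 0.00152), with an adjusted p = 0.00754 under the slide block. The reverse probe A_30_P01029013 of chr11:76427968-76435706 read -0.45 and 0.75 in E11.5 progenitors, -0.32 and 0.29 in P0 progenitors, -2.25 and -2.27 in P0 non-progenitors, 0.24 and 1.01 in 8-day culture and -4.89 and -4.85 in 19-day culture and was at least 45.1-fold lower at 19 days (log2 change -5.50 ± 0.48 SE, adjusted p = 0.00218), when it was not well above background. The Bhlha9 probe did not pass (log2 change 0.33 ± 0.30 SE, adjusted p = 0.603). Beside Mttp the probe printed above, A_30_P01032042, was at least 133-fold lower at 19 days (log2 change -7.69 ± 1.05 SE, adjusted p = 0.00726; -8.33 to -7.06 with 1 array left out). The slide block gave a smaller change (log2 change -7.06, adjusted p = 0.0374). Across that locus, chr3:137734560-137752677, 5 of 8 tested probes fell, all forward.

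Among the rises from 8 to 19 days, A_30_P01030118 of chr4:3406175-3443875, 32865 bp from the nearest Tmem68 probe, read -3.03 and -2.63 in E11.5 progenitors, -2.46 and -3.09 in P0 progenitors, 0.44 and 0.60 in P0 non-progenitors, -3.83 and -3.54 in 8-day culture and 1.28 and 0.52 in 19-day culture. The 19-day arrays and the P0 non-progenitor arrays were above 0 and all others below -2.4. The rise was 23.9-fold (log2 change 4.58 ± 0.40 SE, adjusted p = 0.00218), with an adjusted p = 0.0124 under the slide block, and the brightest Tmem68 probe did not pass (log2 change -0.53 ± 0.76 SE, adjusted p = 0.763). A_30_P01025511 of chr4:149445201-149445902 read -5.83 and -6.11 in E11.5 progenitors, -6.30 and -6.07 in P0 progenitors, -6.33 and -6.63 in P0 non-progenitors, -6.03 and -5.44 in 8-day culture and 0.75 and -0.52 in 19-day culture, and the 19-day arrays alone were above -1. At 8 days it was not well above background, and it was at least 49.7-fold higher at 19 days (log2 change 5.85 ± 0.54 SE, adjusted p = 0.00258; 5.22 to 6.49 with 1 array left out). Near Ccn1, a matricellular protein gene, A_30_P01019152 of chr3:145313275-145315057 read -0.23 and -2.27 in E11.5 progenitors, 1.87 and 0.97 in P0 progenitors, -1.29 and -4.12 in P0 non-progenitors, -5.12 and -4.45 in 8-day culture and 3.36 and -0.26 in 19-day culture, with 8-day culture lowest and 19-day replicates far apart. It was at least 80.6-fold higher at 19 days (log2 change 6.33 ± 1.35 SE, adjusted p = 0.034), but the change ran from 4.52 to 8.14 with 1 array left out, so that bound was not kept in every such fit. The call was lost without either 8-day array (adjusted p = 0.124 and 0.113) or 19-day culture replicate 1 (adjusted p = 0.146), with the slide block (adjusted p = 0.125) and after normexp correction (adjusted p = 0.0723). The Ccn1 probe, 3029 bp from the interval, rose in the same comparison (log2 change 5.71 ± 0.47 SE, adjusted p = 0.00197). Over all interval probes the count of 440 became 166 without 8-day culture replicate 2, 260 without replicate 1 and 185 without 19-day culture replicate 1. The share higher, 37.3%, was 47.1% after quantile normalization and 52.4% without the intensity trend.

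Regions within 50 kb of listed progenitor and patterning genes were counted gene by gene. Near Sall1 27 probes were tested, and 3 were higher in P0 progenitors than in the non-progenitors (7.09% of all probes tested were called there, in either direction) and 6 lower in 19-day culture than in E11.5 progenitors (15.3%). Near Hoxb9 16 were tested, and 4 were lower and 1 higher at 8 days (4.48% of all probes) and 8 lower and 1 higher at 19 days. Near Foxc2, a forkhead factor gene, limma called 0 of 14 tested probes in each of the 5 comparisons, where 3, 0, 1, 1 and 1 had an unadjusted p below 0.05. The 3 probes near Osr1, a factor of the earliest kidney mesoderm, did not pass the filter.

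Beside Wnt4, the signal that starts the epithelial conversion of progenitors, 18 probes were tested. Of these, 3 were lower in P0 than in E11.5 progenitors (3.46% of all probes tested were called there, in either direction) and 2 higher in 19-day culture than in E11.5 progenitors (15.3%). A_30_P01023127 of chr4:136856064-136877219, an interval that also holds a probe of the small GTPase gene Cdc42, read 5.62 and 5.63 in E11.5 progenitors, 4.65 and 4.73 in P0 progenitors, 5.13 and 5.01 in P0 non-progenitors, 5.55 and 5.41 in 8-day culture and 5.48 and 5.75 in 19-day culture. The probe shares bases with a probe of another target. The E11.5 arrays were above both P0 progenitor arrays, and the change was 1.91-fold (log2 change -0.93 ± 0.12 SE, adjusted p = 0.0116). The reverse probe A_30_P01029358 of that interval did not pass there (log2 change -0.16 ± 0.12 SE, adjusted p = 0.55), nor did the brightest Cdc42 probe (log2 change -0.46 ± 0.11 SE, adjusted p = 0.0806). The Wnt4 probe itself went the other way in that comparison (log2 change 3.32 ± 0.59 SE, adjusted p = 0.0295).

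Intervals held probes of 16 of the 43 named long noncoding RNAs searched for, 31 of which were on the array, and had 217 probes, 181 tested. Those higher and lower numbered 2 and 7 in P0 progenitors against P0 non-progenitors (4.97% called), 1 and 4 in P0 against E11.5 progenitors (2.76%), 6 and 7 at 8 days (7.18%), 17 and 13 at 19 days (16.6%) and 2 and 7 between the culture times (4.97%). Over all probes tested the shares called were 7.09%, 3.46%, 4.48%, 15.3% and 7.15%. The median change was 0.12, -0.33, 0.18, 0.16 and 0.03, beside 0.12, -0.11, 0.02, 0.02 and -0.01 over all probes tested. At 19 days the rises were 7 of 21 tested probes at Pvt1, a transcript beside Myc, 5 of 15 at Malat1, 2 of 2 at Neat1 and 1 each at Airn, Lncpint and Mirg. The falls were 10 of 20 at Mir17hg and 1 each at Jpx, Mirg and Tug1.

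At Malat1 A_30_P01031405 read 8.65 and 8.69 in E11.5 progenitors, 8.16 and 8.11 in P0 progenitors, 8.55 and 8.73 in P0 non-progenitors, 8.63 and 9.05 in 8-day culture and 8.85 and 8.77 in 19-day culture, and it did not pass in P0 progenitors against P0 non-progenitors (log2 change -0.50 ± 0.12 SE, adjusted p = 0.0573). Nor did it pass against E11.5 progenitors at 8 days (log2 change 0.17 ± 0.12 SE, adjusted p = 0.541) or 19 days (log2 change 0.14 ± 0.12 SE, adjusted p = 0.523). The probe that carries the name Malat1 was higher at 19 days (log2 change 4.06 ± 0.59 SE, adjusted p = 0.00493). At Gas5, a host gene of small nucleolar RNAs, A_30_P01019617 read 3.27 and 2.51 in E11.5 progenitors, 2.90 and 2.94 in P0 progenitors, 2.14 and 2.41 in P0 non-progenitors, 4.08 and 4.21 in 8-day culture and 2.68 and 2.78 in 19-day culture. The 8-day arrays were above all others, and it was 2.38-fold higher than in E11.5 progenitors (log2 change 1.25 ± 0.25 SE, adjusted p = 0.0384) and fell by 19 days (log2 change -1.41 ± 0.25 SE, adjusted p = 0.0174). Of 15 tested probes in intervals that hold Gas5, only 1 was called in each of these comparisons. The probe that carries the name Gas5 did not pass at 8 days (log2 change 0.38 ± 0.21 SE, adjusted p = 0.399). Nor did it pass between the culture times (log2 change -0.55 ± 0.21 SE, adjusted p = 0.189). At Tsix, the antisense partner of Xist, A_30_P01021082 had a log2 change of 0.69 ± 0.10 SE (adjusted p = 0.0177) at 8 days and is among the probes that share bases with probes of other targets.

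The rule on mean level named 5 interval probes. A_30_P01018010 of chr17:39960567-39992817 read 10.22 and 10.20 in E11.5 progenitors, 9.78 and 9.74 in P0 progenitors, 9.57 and 9.65 in P0 non-progenitors, 9.62 and 10.05 in 8-day culture and 9.16 and 9.39 in 19-day culture, and A_30_P01025541 of chr2:151992806-152025456, the one that shares bases with Rps15a, read 9.62 and 9.42 in E11.5 progenitors, 9.58 and 9.60 in P0 progenitors, 9.13 and 9.12 in P0 non-progenitors, 9.69 and 9.98 in 8-day culture and 9.11 and 9.16 in 19-day culture. The 19-day arrays were the lowest for the first, while the second was as low in P0 non-progenitors. The first was 1.92-fold lower in 19-day culture than in E11.5 progenitors (log2 change -0.94 ± 0.13 SE, adjusted p = 0.00422). For A_30_P01023587 of chrX:33750475-33770425 and A_30_P01019201 of chr7:108209996-108216032 the same comparison gave a log2 change of -0.39 ± 0.07 SE (adjusted p = 0.00926) and a log2 change of -0.64 ± 0.08 SE (adjusted p = 0.00227). A_30_P01019201 too shares bases with probes of other targets. The last of the 5, A_30_P01031754 of chr19:5801802-5802597 in the Malat1 stretch, differed between P0 and E11.5 progenitors (log2 change -0.57 ± 0.11 SE, adjusted p = 0.0413).

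The changes of region probes were nearer to those of the nearest named gene where its probe lay inside the interval. Pearson's r between both changes was 0.47 in P0 progenitors against P0 non-progenitors, 0.21 in P0 against E11.5 progenitors, 0.26 at 8 days, 0.36 at 19 days and 0.36 between the culture times (2261 probes). For genes more than 50 kb away it was 0.16, 0.03, 0.01, 0.06 and 0.06 (1690 probes). These are descriptions over probes that share arrays, and many probes share a gene. The share of interval probes called did not follow this order, with 10.8% at 19 days where the interval holds a named gene's probe, 7.96% within 5 kb of one, 8.89% from 5 to 50 kb and 9.74% beyond.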

How the data were processed

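The authors deposited a scanner table for each array, with intensities extracted with Agilent Feature Extraction 11.5.1.1, per the submitters' processing notes. The processed signal is background-subtracted within each array, per the file headers, and had no normalization between arrays. Per the labels' protocols, RNA was isolated from sorted cells, amplified as cDNA and labelled with Cy3. Control spots and outlier flags were left out, log2 intensities were set relative to the 75th percentile of their array, and spots of a probe were averaged. Names and positions (mm9) came from the array's own annotation. The values of a named gene are those of its probe with the highest mean level, and distances are to its nearest probe.

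The 39831 probes that both arrays of some group showed well above background entered limma 3.58.1 in R 4.3.3 (data.table package, version 1.17.8), with a mean per group over all 10 arrays, an intensity trend and Benjamini-Hochberg adjustment at 0.05, 2-sided. Python 3.11.15, pandas 2.3.3, numpy 2.4.6 and matplotlib 3.10.9 did the rest. The script was tested on data simulated for 19-day culture against E11.5 progenitors, with 200 of 39820 probes changed. It called 0.5% of the changes of 1 log2 unit, 13.5% of those of 2 and 74.5% of those of 4. Fewer probes changed there than were called on the real arrays, so these shares are not those of the reported tests. A change that did not pass is not shown to be absent.

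Named probes were, per comparison, the 5 largest rises and 5 largest falls among called probes above background on all 4 arrays with groups that do not overlap, the 3 highest bounds in each direction, the 3 leading strand differences, the 5 brightest probes and up to 10 per list. The text describes part of these, and 1 listed gene with its region is not reported here. Members, lists and rules were chosen with earlier results of these data known. Alternatives were quantile normalization, normexp with an offset of 50, other filters, no trend, the compared groups alone, replicate and slide blocks and leaving out each array. Fits to 1 slide, and the slide block for single probes, were added after seeing the data. The number of arrays limits the precision.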

Additional observations from a re-analysis of the deposited data

Results flagged for a closer look

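The change from E11.5 progenitors had opposite signs at 8 and 19 days for 10 of the probes named by rule. All 10 were named from the calls between 19-day and 8-day culture, so that their difference passed limma's test was fixed by that choice and is a description. Beside Mttp, A_30_P01032042 was 6.91 log2 units above E11.5 progenitors at 8 days and differed by -7.69 between the culture times (adjusted p = 0.00726), and A_30_P01024709 of the overlapping chr3:137742666-137744470 differed by -7.47 (adjusted p = 0.00876). Neither was well above background in E11.5 progenitors or in 19-day culture, so no sign is read from their changes at 19 days. On the Bhlha9 side A_30_P01028149 differed by -4.86 and A_30_P01029013 by -5.50, near Sox4 A_30_P01017692 by -4.32 and near Nanos3 A_30_P01020098 by -3.61 (adjusted p = 0.0497). At Ifi207 A_30_P01027265 differed by 5.18 and A_30_P01032721 by 6.74, at chr4:3406175-3443875 A_30_P01030118 by 4.58 and near Ccn1 A_30_P01019152 by 6.33 (adjusted p = 0.034). A_30_P01032721 was well above background on neither 8-day array and on only 1 E11.5 array, so no sign is read from its change at 8 days. Some of the culture changes behind these differences were small. The slide of the arrays differed with culture time, as given in the report.

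Outside the probes with a strand letter, 13 probes are named by an interval without one. Of these, 4 were well above background on all 10 arrays, 1 in chr3:34856791-34869544 and 3 in chr17:12941161-12944859.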

How the results depend on the processing

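Counts of called interval probes are given in the order P0 progenitors against P0 non-progenitors, P0 against E11.5 progenitors, 8-day culture against E11.5 progenitors, 19-day culture against E11.5 progenitors, and 19-day against 8-day culture (402, 237, 303, 1012 and 440 as reported). Without the intensity trend 217, 95, 134 and 837 were called, and 164 in the last. Fits of the compared groups alone called 486, 20, 0, 256 and 0, and where they called 0, 1285 (8-day culture) and 1411 (19-day against 8-day) had an unadjusted p below 0.05. The slide block gave 138, 275 and 261 for the culture comparisons. Slide 1 arrays alone gave 101 for 8-day culture, and slide 2 arrays 0 for 19-day against 8-day culture, where 1468 had an unadjusted p below 0.05. Under quantile normalization, normexp, no filter and a filter on all arrays each count was within 1.5 times the reported one. Leaving out 1 array gave 90 to 139, 10 to 195, 86 to 232, 504 to 852 and 166 to 321. The cause of these shifts was not tested, apart from the fewer arrays.

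For the strand differences, leaving out 1 array gave 0 to 1, 0 to 2, 0 to 3, 0 to 8 and 0 to 1 in the same order, where 3, 0, 0, 0 and 0 were reported. The filter on all arrays gave 5, 3, 21 and 2 for the last 4 comparisons, and normexp gave 3 at 8 days and 42 at 19 days, so whether strands changed unequally in culture depends on the processing.

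Replicate numbers did not pair the samples, with correlations of -0.017 to 0.019 between groups. With replicate number as a block 354, 171, 238, 941 and 382 interval probes were called, and strand differences numbered 1 in P0 progenitors against P0 non-progenitors and 5 at 19 days. For the 80 named changes quantile normalization, normexp, the replicate block, the slide block and leaving out 1 array were run, and none reversed under these. The call was kept by 78 under quantile normalization, 67 under normexp, 72 under the replicate block and 55 under the slide block, and in 184 of 320 fits without 1 array (18 of 64 for P0 against E11.5 progenitors, 21 of 64 at 8 days). The fold moved by over 1.5 times in 76 under normexp, smaller in each, in 17 under the slide block and in 38 without some array.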
